A study of Homo sapiens with 6 samples.

Results

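The genes ADAR, ADARB1 and ADARB2, which encode the ADAR family of RNA-editing enzymes, were examined for sites of thymidine glycol in human HEK293T cells. Every deposited site whose midpoint lay in the body of one of the 3 genes, or within 200 kb of it, was taken, with gene bodies from the RefSeq table of GRCh38.p14. This gave 14 of the 3688 sites listed for wild-type cells and 25 of the 9373 sites listed for knockout cells, 39 of 13061 in all. The genes were selected on the counts of sites measured in and around them and on the nearness of ADARB1 and ADARB2 to a chromosome end. Those counts are therefore given as a description, with no test. Each of the 3 symbols matched 1 gene of the table. The lists hold positions in DNA and no expression values, so the activity of these genes in the cells was not measured.

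Thymidine glycol is an oxidised thymidine that blocks DNA polymerases. It is removed in base excision repair by DNA glycosylases, among them NTHL1 and NEIL1. These cut the damaged base out, and later enzymes complete the repair. DPC-Seq uses this chemistry. Fragmented genomic DNA is treated with NTHL1 and a reducing agent, so that the enzyme stays fixed where it removed a base, and the fragments that carry protein are recovered through the protein and sequenced. The labels give 6 samples of HEK293T, a human embryonic kidney line transformed with adenovirus DNA and SV40 large T antigen. There are 2 NTHL1-labelled DPC-Seq libraries with the genotype wild type, 2 such libraries with the genotype NTHL1-/-,NEIL1-/- (the double knockout), and 2 untreated inputs, 1 of each genotype. How the knockout line was cloned is not stated in the labels. Because 1 list of sites was deposited for each genotype, values have no spread between libraries, and no difference between the genotypes could be tested.

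ADAR enzymes convert adenosine to inosine in double-stranded RNA, and inosine is read as guanosine by the ribosome. ADAR, also called ADAR1, edits long repeat-derived duplexes and keeps the cell's own double-stranded RNA from activating innate sensors such as MDA5. ADARB1, also called ADAR2, recodes transcripts of neuronal channels and receptors, of which the glutamate receptor subunit GRIA2 is the best known. ADARB2, also called ADAR3, is found mainly in the brain, binds double-stranded RNA and has no known deaminase activity. Editing also connects the family with repair of oxidised bases, since the transcript of NEIL1, a gene disrupted in the knockout cells, is itself recoded by ADAR.

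The 3 genes differ widely in size and place. ADAR spans 45.9 kb at chr1:154582057-154627997 on the minus strand, 94.3 Mb from the nearer chromosome end. ADARB1 spans 152 kb at chr21:45074578-45226563 on the plus strand, between 1.47 and 1.63 Mb from the end of the long arm. ADARB2 spans 560 kb at chr10:1177313-1737525 on the minus strand, between 1.17 and 1.73 Mb from the end of the short arm. ADARB1 and ADARB2 thus lie at like distances from an end and are both transcribed towards it. The end of a chromosome was taken as its outermost annotated gene or site.

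RefSeq lists 3 start windows for ADAR, 4 for ADARB1 and 1 for ADARB2, and some of those at ADAR and at ADARB1 overlap each other. No site of either list overlapped any of these windows. The 250 bases before 4 of these starts are shown because thymidine glycol is an oxidised thymidine, and because the starts differ in their count of T on the strand of the gene. Thymine of the other strand lies opposite A, so the share of A plus T covers both strands. They are printed 5′ to 3′ on the strand of the gene, from the RefSeq promoters of GRCh38.p14, with every T in capitals. The ADAR window is chr1:154627998-154628247 on the minus strand, the outer ADARB1 window is chr21:45074328-45074577 on the plus strand, the inner ADARB1 window, within the gene body, is chr21:45152280-45152529 on the plus strand, and the ADARB2 window is chr10:1737526-1737775 on the minus strand.
ADAR start: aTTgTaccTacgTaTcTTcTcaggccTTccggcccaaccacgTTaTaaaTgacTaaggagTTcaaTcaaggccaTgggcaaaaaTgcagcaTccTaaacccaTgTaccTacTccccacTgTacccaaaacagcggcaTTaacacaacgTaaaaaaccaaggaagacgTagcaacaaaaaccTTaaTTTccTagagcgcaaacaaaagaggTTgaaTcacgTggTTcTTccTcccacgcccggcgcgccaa
ADARB1 outer start: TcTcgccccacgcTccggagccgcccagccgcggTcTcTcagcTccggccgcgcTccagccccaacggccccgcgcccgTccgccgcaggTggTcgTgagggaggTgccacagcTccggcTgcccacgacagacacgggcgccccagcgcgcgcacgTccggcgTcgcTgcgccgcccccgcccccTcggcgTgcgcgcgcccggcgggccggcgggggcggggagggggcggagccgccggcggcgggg
ADARB1 inner start: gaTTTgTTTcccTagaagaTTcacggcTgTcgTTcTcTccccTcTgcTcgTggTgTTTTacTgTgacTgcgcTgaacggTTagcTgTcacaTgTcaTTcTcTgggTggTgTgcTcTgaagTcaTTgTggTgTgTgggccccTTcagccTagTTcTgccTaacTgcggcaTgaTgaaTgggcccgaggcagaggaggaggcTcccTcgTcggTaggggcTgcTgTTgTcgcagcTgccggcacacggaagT
ADARB2 start: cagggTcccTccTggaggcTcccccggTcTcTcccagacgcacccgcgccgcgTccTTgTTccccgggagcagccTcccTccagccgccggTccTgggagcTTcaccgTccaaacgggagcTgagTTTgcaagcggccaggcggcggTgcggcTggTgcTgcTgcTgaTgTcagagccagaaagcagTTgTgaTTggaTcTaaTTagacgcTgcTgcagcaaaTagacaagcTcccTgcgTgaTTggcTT

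The outer ADARB1 start was the poorest of the 4 in thymine, with 20 T in 250 bases and 16.4% A plus T, at the 0.729th percentile of all start windows in the table. The inner ADARB1 start held 72 T and 43.2% A plus T, at the 52.8th percentile. The ADAR start held 48 T and 52.8% A plus T, and the ADARB2 start held 50 T and 36.4% A plus T. Across all 35116 windows the median was 42.0%, with 24.8% at the 10th and 62.0% at the 90th percentile. Sites at starts were rare throughout the genome: 34 windows (0.0968%) overlapped a site of the wild-type list and 78 (0.222%) of the double-knockout list, so the lack of any at the 3 genes is the common state.
The nearest site to the ADARB2 start was 166 kb away in the wild-type list and 67.5 kb away in the double-knockout list. For the outer ADARB1 start these distances were 31.7 and 31.6 kb, and for the ADAR start 85.7 and 56.9 kb. The inner ADARB1 start had a double-knockout site 3.52 kb away, the closest of any site to a start of the 3 genes. In the gene bodies and flanks together there were 46 start windows of any gene, and 0 of them held a site.

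The sites fell into the gene body at ADARB2 and around the gene body at ADAR and ADARB1. The body of ADARB2 held 7 wild-type sites (95% exact Poisson interval 2.81 to 14.4) and 12 double-knockout sites (6.20 to 21). The body of ADARB1 held 0 wild-type sites and 1 double-knockout site, and the body of ADAR held 0 in both lists. These intervals cover counting error only. For a count of 0 the same interval runs up to 3.69 sites (the one-sided limit is 3). In bodies of 45.9 kb for ADAR and 152 kb for ADARB1, a count of 0 thus says little about the rate.
Across all 19866 protein-coding genes on the assembled chromosomes, 5.91% held a wild-type site in the body and 14.1% a double-knockout site. With flanks of 200 kb the shares were 42.1% and 70.2%, so that a site in the neighbourhood of a gene, as all 3 members had in both lists, is common. The members' counts had part in choosing them, and nothing is read from the comparison with these shares.

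**Figure D1:**
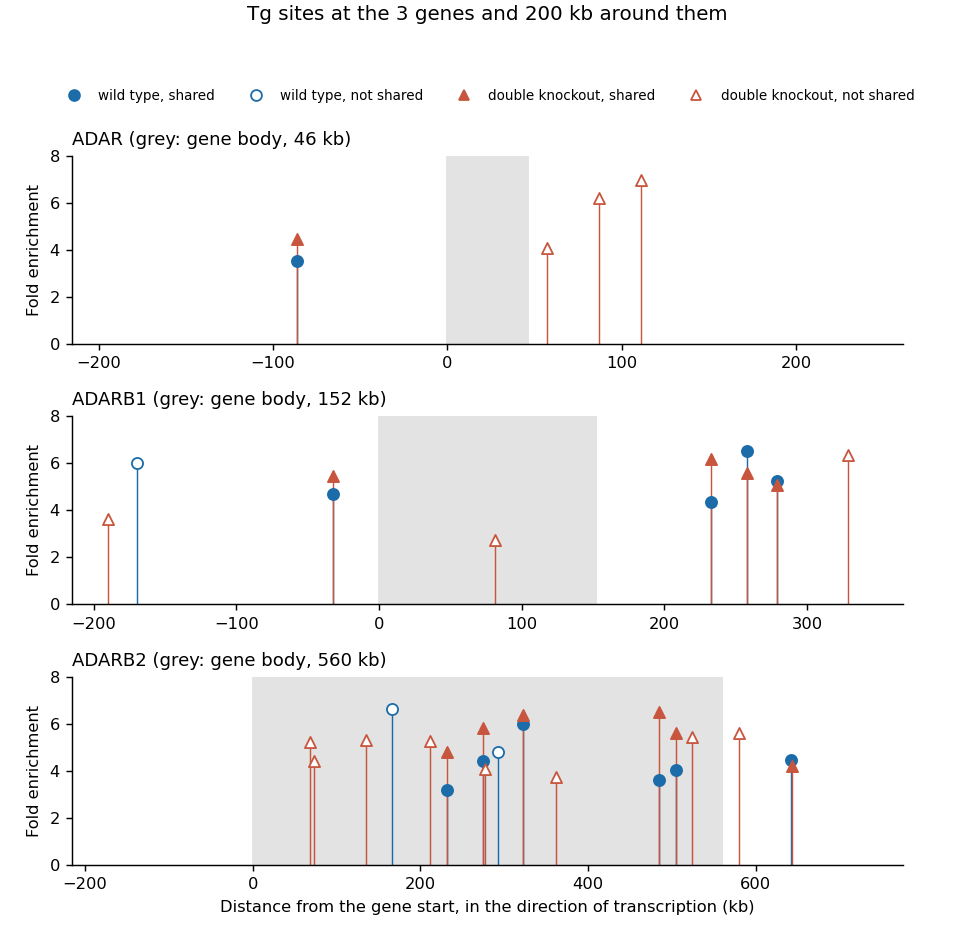
Fold enrichment (vertical axis, the authors' value for each site) against distance from the gene start in kb, in the direction of transcription, for ADAR, ADARB1 and ADARB2 with 200 kb on each side; grey marks the gene body, circles the wild-type list and triangles the double-knockout list, filled where the site overlaps 1 of the other list. ADARB2 has 7 circles and 12 triangles in its body, while ADAR has none and ADARB1 has 1 triangle.

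ADAR had the fewest sites. The wild-type list held 1 site in its flanks, at chr1:154713951-154714538 in KCNN3, which encodes a calcium-activated potassium channel, with 20 reads and 3.52-fold enrichment. Reads here are those at the summit of a site, recovered from the deposited fold enrichment and p-value. The double-knockout list held an overlapping site with 39 reads and 4.46-fold enrichment. Both lists thus marked the same place, 86.2 kb before the ADAR start.
The other 3 double-knockout sites lay on the opposite side of ADAR, beyond the end of the gene, with the nearest wild-type site 143 to 197 kb away. The pair in TDRD10, a Tudor-domain gene, had 23 and 25 reads and folds of 6.96 and 6.21. The last, in CHRNB2, which encodes a nicotinic acetylcholine receptor subunit, had 16 reads and a fold of 4.06. The 6.96-fold site in TDRD10 was the most enriched of all 39 sites, above 88.4% of the double-knockout list. IL6R, SHE and UBE2Q1, the remaining protein-coding neighbours, held 0 sites in either list.

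ADARB1 was flanked by sites on both sides, of which 4 were found in both lists. On the side of its start, a shared site lay 32.3 kb before the gene at chr21:45041960-45042669, with 13 wild-type and 24 double-knockout reads. Beyond the end of the gene, 3 shared sites followed one another, at 233, 258 and 279 kb from the start. Their wild-type reads were 12, 15 and 16 and their double-knockout reads 19, 29 and 19. The order of the 3 by reads thus differed between the lists, within counting error. None of these 3 lay in a gene body of the table.
Of the sites near ADARB1 found in 1 list, the wild-type site at chr21:44904343-44904686 in ITGB2, which encodes an integrin subunit of leukocytes, had 17 reads and a fold of 6.02. The nearest double-knockout site, in no gene, was 19.4 kb away, with 20 reads and a fold of 3.63. The double-knockout site at chr21:45403522-45403832 had 23 reads and a fold of 6.33 and lay 1.08 kb from a start window of COL18A1, which encodes a basement-membrane collagen. COL18A1 itself begins within the range and held 0 sites there. Over its whole body it held 5 sites in each list. SLX9 and POFUT2 held 0.
The sole site inside ADARB1 was weakly enriched. It lay at chr21:45156099-45156354 in the double-knockout list, 81.6 kb from the gene start, and had 28 reads. Its background of 9.56 reads was the highest of all 39 sites. Its fold of 2.75 was the lowest of the 39 and only 1.30% of the double-knockout list had a lower one.

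ADARB2 held the largest group, 19 of the 39 sites within its body, at 14 separate positions. Of these positions 5 were marked in both lists, 2 in the wild-type list alone and 7 in the double-knockout list alone. The 7 wild-type sites had 8 to 16 reads, median 11, and folds from 3.16 to 6.62. The 12 double-knockout sites had 14 to 27 reads, median 20, and folds from 3.71 to 6.49.
The 5 shared positions lay between 232 and 505 kb from the gene start. From the start onwards their wild-type reads were 10, 11, 10, 8 and 14, and their double-knockout reads, on a deeper library, were 21, 21, 14, 21 and 27. The shared site nearest the end of the gene, chr10:1232504-1232819 in the wild-type list, had the most reads of the 5 in both lists. Summits of the shared sites in the body lay 7 to 125 bp apart, shorter than the narrowest site of either list.
The largest wild-type signal in ADARB2 had no double-knockout counterpart. At chr10:1571568-1571952, 166 kb from the gene start, the wild-type list gave 16 reads on a background of 1.57 and a fold of 6.62. The authors' deposited table gives it a −log10 q of 7.46, rank 700 of the list by q. The nearest double-knockout site was 30.6 kb away. Of the 704 wild-type sites at least as strong by q, 43 (6.11%) overlapped no double-knockout site, so a site of this strength is usually found in both lists. The other wild-type site without a counterpart in ADARB2, at chr10:1444487-1444830, had 11 reads and a fold of 4.79.
The 7 positions marked in the double-knockout list alone had 14 to 25 reads. The closest to the gene start were at 67.8 and 73.4 kb, with 25 and 14 reads, in a stretch of the gene where the wild-type list had no site. The wild-type list began at 166 kb, which leaves 29.6% of ADARB2 before its first site. In 4 equal stretches of 140 kb from the start, the body held 0, 3, 2 and 2 wild-type and 3, 4, 2 and 3 double-knockout sites. Gaps between neighbouring sites ran from 18.0 to 161 kb in the wild-type list, median 36.0 kb, and from 2.18 to 122 kb in the double-knockout list, median 39.3 kb.
Around ADARB2 sites were few. In the 200 kb towards the chromosome end there was 1 wild-type site, in WDR37, with 12 reads, which overlapped a double-knockout site of 20 reads. A further double-knockout site with 16 reads lay in the non-coding gene LOC105376344. The 200 kb on the other side, before the gene start, held 0 sites in both lists. LARP4B, GTPBP4, IDI2 and IDI1, which lie towards the chromosome end, held 0 as well.

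The choice of 200 kb left out sites close by. The nearest beyond it lay 208 and 211 kb from ADARB1 in the double-knockout list, with 17 and 19 reads, against 190 and 177 kb for the outermost sites inside, with 20 and 23 reads. At ADAR the outermost site inside lay 86.3 kb and the nearest outside 224 kb from the gene, with 39 and 16 double-knockout reads. At ADARB2 the nearest sites outside were 280 kb away in the double-knockout list and 438 kb away in the wild-type list, with 15 and 13 reads, while the outermost inside lay 82.4 and 82.1 kb away, with 20 and 12 reads.

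The distance to the chromosome end was considered next, because sites were denser near the ends. Outside the 3 genes and their flanks, the wild-type list held 3.97 sites per Mb in the outermost 1 Mb of the chromosomes, 4.66 between 1 and 2 Mb, 4.45 between 2 and 5 Mb, 1.91 between 5 and 10 Mb, 1.38 between 10 and 20 Mb and 0.751 farther in. The double-knockout list held 7.22, 8.13, 7.70, 4.86, 3.61 and 2.38 sites per Mb in the same bins. The rate was therefore several times higher in the outer 5 Mb, where ADARB1 and ADARB2 lie, than in the interior, where ADAR lies. The bin of ADARB1 and ADARB2 did not stand apart from the bins on both sides, whose intervals overlapped its own. In windows of 1 Mb over all ends, members included, the rate was higher from 2 to 3 Mb (5.05 and 8.78 sites per Mb) and from 3 to 4 Mb (5.43 and 8.50) than from 1 to 2 Mb (4.80 and 8.33).
Against the rate between 1 and 2 Mb from an end, the body of ADARB2 held 2.68 times the wild-type sites (95% interval 1.08 to 5.52, for counting error in the gene) and 2.63 times the double-knockout sites (1.36 to 4.60). The rate at that distance would give 2.61 wild-type and 4.56 double-knockout sites in a stretch of its length. In its flanks the ratio was 0.543 (0.0137 to 3.02) and 0.620 (0.0751 to 2.24). Body and flanks together came to 1.80 in both lists, with intervals of 0.775 to 3.54 and 0.984 to 3.02 that include 1. With double-knockout reads thinned to wild-type depth and both lists held to the wild-type median −log10 p of 8.46, the ratio was 0.909 in wild type, below 1, and 1.25 in double knockout.
ADARB1, at the same distance, had the opposite arrangement. Its flanks held 2.68 times the wild-type rate (0.870 to 6.25) and 1.84 times the double-knockout rate (0.677 to 4.01). Its body, where the rate would give 0.709 wild-type and 1.24 double-knockout sites, held 0 and 1. Body and flanks together gave 1.94 (0.631 to 4.53) and 1.56 (0.627 to 3.21). All these intervals are wide and those of ADARB1 include 1, so whether the bodies of the 2 genes differ in rate could not be told at these counts.
ADAR lies where sites are sparse. Its body and flanks would hold 0.335 wild-type and 1.06 double-knockout sites at the rate over 20 Mb from an end, and held 1 and 4, a ratio of 2.99 (0.0756 to 16.6) and 3.77 (1.03 to 9.64). Against positions on the same chromosome arm at that distance the ratios were 1.62 and 2.06. With the thinning and threshold given for ADARB2 they were 0 and 8.67, so the size of the ratio at ADAR rests on the threshold. In absolute terms the double-knockout rate at ADAR, from 4 sites, was 8.97 per Mb (2.44 to 23). The rate 1 to 2 Mb from the ends was 8.13 per Mb. In wild type the rate at ADAR, from 1 site, was 2.24 per Mb (0.0568 to 12.5), below the 4.66 per Mb found 1 to 2 Mb from the ends. Both intervals are wide and include the rate near the ends.

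**Figure D2:**
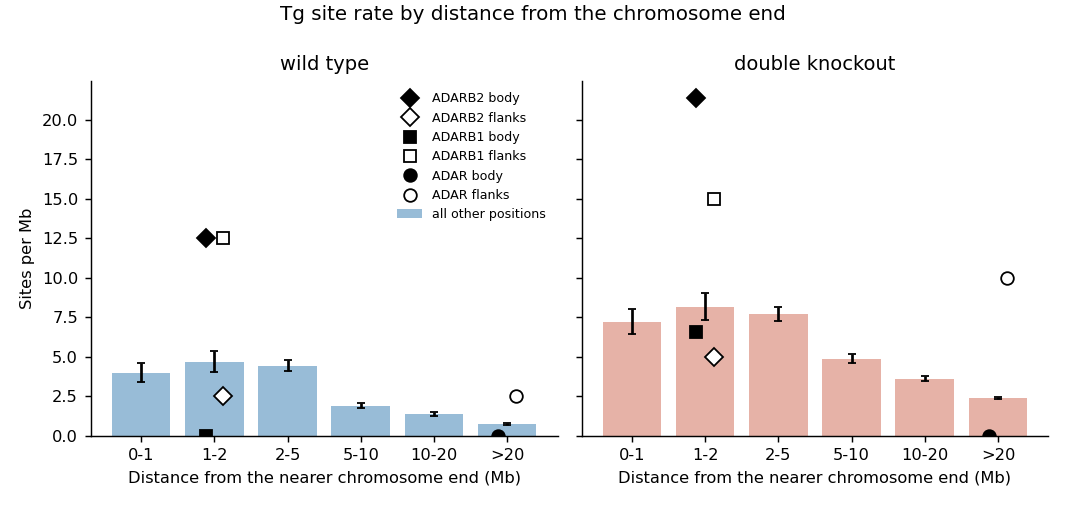
Sites per Mb (vertical axis) by distance from the nearer chromosome end in Mb, in wild type on the left and double knockout on the right; bars are all positions outside the 3 genes and their flanks, with 95% exact Poisson intervals, filled symbols the gene bodies and open symbols the 200 kb flanks. The ADARB2 body reached 12.5 and 21.4 sites per Mb, above its bar of 4.66 and 8.13, while its flanks, at 2.5 and 5 sites per Mb, lay below it.

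Along the last 10 Mb of the short arm of chromosome 10, the window from 1 to 2 Mb that holds ADARB2 was the fullest, at 8 wild-type and 14 double-knockout sites. All of these are the sites already described at ADARB2 and beside it, so the window and its rank restate the counts that chose the gene. The other 9 windows of 1 Mb held 0 to 7 wild-type sites, median 3, and 1 to 12 double-knockout sites, median 5. Among 45 chromosome ends, however, this window ranked 9th in both lists, sharing the rank with other ends. The window of ADARB1 on chromosome 21, with 15 and 18 sites, ranked 4th and 6th. The median of all ends was 3 wild-type and 6 double-knockout sites, and the fullest held 26 and 29.
The outermost 1 Mb of these arms was poorer than the window next to it. It held 5 wild-type and 4 double-knockout sites on chromosome 10, and 3 and 10 on chromosome 21. On both arms the sites therefore did not increase steadily towards the end.

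Length and place together put ADARB2 in a small group of genes. It is the 253rd longest of 19866 protein-coding genes, and 4 held more wild-type and 6 more double-knockout sites. Among the 237 genes of at least 100 kb within 5 Mb of an end, 41.4% held a wild-type and 57.4% a double-knockout site. Of these genes, 3 and 2 respectively held more than ADARB2. Since ADARB2 was chosen on its counts, its ranks restate them. Per length it stood out less, since 28 of the 237 held more wild-type sites per Mb and 21 more double-knockout sites per Mb than its 12.5 and 21.4. Among the 657 protein-coding genes of any length 1 to 2 Mb from an end, 8.22% held a wild-type and 12.3% a double-knockout site.
The 5 genes closest to ADARB2 in length within 5 Mb of an end ranged from 0 to 7 wild-type and from 0 to 12 double-knockout sites. RBFOX3, a neuronal splicing factor, held 6 wild-type and 12 double-knockout sites, and GSE1 held 7 and 10, both near the 7 and 12 of ADARB2. MYT1L, a neuronal transcription factor, held 2 and 3. KIF26B, a kinesin, and ERC1, a scaffold of the presynaptic zone, held 0 in both lists, and ERC1, 1.23 Mb from its end, lies as near an end as ADARB2 does. Genes of like length within 5 Mb of an end thus ranged from none to as many as ADARB2. RBFOX3 and GSE1, whose counts were near those of ADARB2, lie farther in, 3.86 and 4.80 Mb from an end. MYT1L lies 2.02 Mb from an end.

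**Figure D3:**
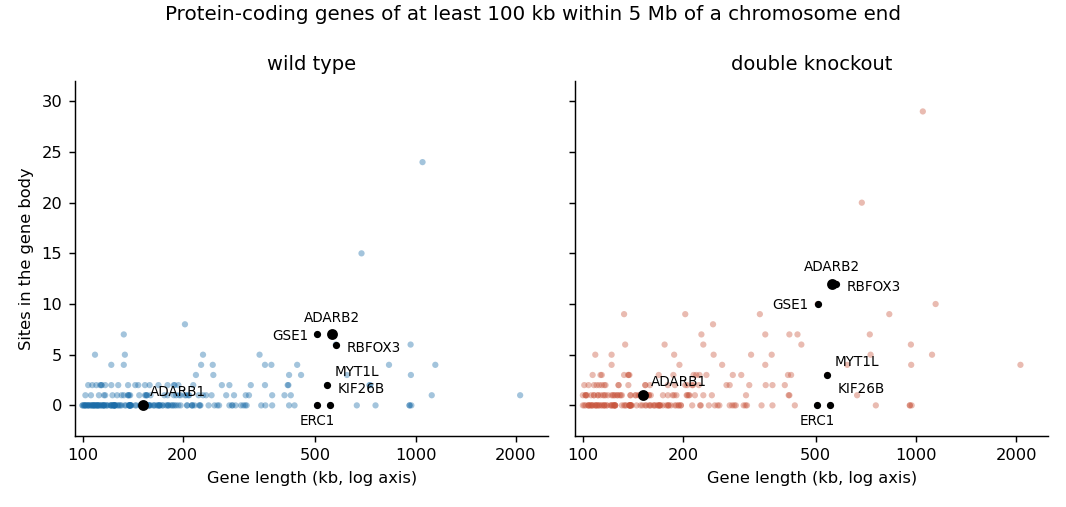
Number of sites in the gene body (vertical axis) against gene length in kb (log axis) for the 237 protein-coding genes of at least 100 kb within 5 Mb of a chromosome end, wild type on the left and double knockout on the right; black points mark ADARB1, ADARB2 and the 5 genes closest to ADARB2 in length. ADARB2, RBFOX3 and GSE1 lie together with 6 to 7 and 10 to 12 sites, while KIF26B and ERC1, of like length, are at 0.

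The genotypes were then set side by side at the 3 genes. The double-knockout list was 2.54 times longer than the wild-type list and was made from deeper data, with 1.69 times the depth times fragment length as recovered from the lowest backgrounds. At the 3 genes the double-knockout list held 1.79 times as many sites, and in the body of ADARB2 1.71 times. Wild-type sites made up 35.9% of the sites at the 3 genes (exact binomial interval 21.2% to 52.8%) against 28.2% of both lists together, a value inside the interval. Elsewhere between 1 and 2 Mb from an end the double-knockout list held 1.74 times as many sites (354 against 203), and over 20 Mb from an end 3.17 times. At ADARB1 and ADARB2 the counts do not separate these ratios, and at ADAR the counts of 1 and 4 are too few to compare with 3.17.
Most wild-type sites at the 3 genes were also in the double-knockout list. The share was 11 of 14, or 78.6% (49.2% to 95.3%), against 75.3% of the whole wild-type list. In the other direction it was 11 of 25, or 44.0% (24.4% to 65.1%), against 28.3% of the whole double-knockout list. Both whole-list shares lie inside the intervals of the members. Thinned to wild-type depth and held to the wild-type median p, the members' shares fell to 22.7% and 14.2%. At stricter q most of the members' wild-type sites were still shared, and with other definitions of overlap the share stayed at 78.6%. The fall was thus seen only at the thinned setting, whose threshold was also stricter than those q cuts, and its cause was not tested. No whole-list share at that setting is given, so the fall cannot be read as a trait of the 3 genes.

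Reads at the shared sites differed between the genotypes by less than counting error once divided by depth. The ratio of scaled double-knockout to wild-type reads had a median of 1.13 over the 11 shared sites and ranged from 0.702 to 1.55. It was above 1 at 7 of the 11, and all 11 intervals included 1. The highest ratio was in ADARB2, at chr10:1253824-1254066, where 8 wild-type and 21 double-knockout reads gave 1.55 (0.660 to 4.05). The lowest was beyond ADARB1, at chr21:45353660-45354065, where 16 and 19 reads gave 0.702 (0.342 to 1.46). Over all 2776 shared wild-type sites the median was 0.940, with quartiles of 0.779 and 1.13. With 8 to 20 wild-type reads a site, even the largest and smallest of these ratios could not be told from 1.

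**Figure D4:**
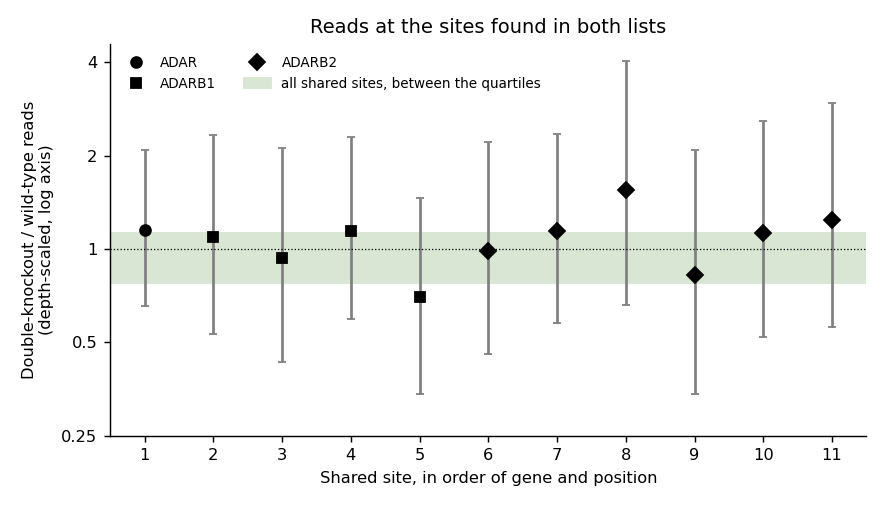
Ratio of depth-scaled double-knockout to wild-type reads (vertical log axis) at the 11 shared sites, in order of gene and position along the horizontal axis, with 95% intervals for counting error; the shaded band runs between the quartiles of all shared sites, 0.779 to 1.13, and the dotted line marks 1. Every interval crosses 1, and the points run from 0.702 to 1.55.

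The sites found in 1 list were set against the depth of the other. All 14 double-knockout sites without a counterpart, thinned in proportion to 8.27 to 16.5 reads, would pass the weakest p-value in the wild-type list (−log10 p of 3.79), and 3 of them would pass its median of 8.46. Those 3 are the pair in TDRD10 near ADAR and the site near COL18A1. None of the 7 in the ADARB2 body would pass that median. The 3 wild-type sites without a counterpart, scaled up to 18.6 to 28.8 reads, would all pass the double-knockout median of 9.20. The 2 strongest, in ADARB2 and ITGB2, would reach a −log10 p of 18.7 and 17.1. These scaled values describe what equal signal would have given and do not replace a measurement of the other library at these places.

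The other genes of RNA editing and double-stranded RNA biology were counted in the same way, within the gene body, from 4 lists of 69 genes beside the members. Sites of the wild-type list were found in 4 of them (5.80%) and of the double-knockout list in 9 (13.0%), close to the 5.91% and 14.1% of all protein-coding genes. Both lists marked 2 genes. None of the 5 other adenosine deaminases and related proteins, ADAD1, ADAD2, ADAT1, ADAT2 and ADAT3, held a site. Of the 8 deaminase genes listed only ADARB2 held wild-type sites, but it was chosen on its counts. The 5 others were 6.01 to 50.8 kb long against 560 kb for ADARB2. Nothing is read from their lack of sites.
Among 25 genes that sense or process double-stranded RNA, EIF2AK2, which encodes the kinase PKR, held 1 wild-type site with 11 reads. OAS2, an interferon-induced oligoadenylate synthetase, held 1 double-knockout site with 18 reads and a fold of 7.33, and STRBP, which encodes a double-stranded RNA-binding protein, held 1 with 20 reads. IFIH1, which encodes the sensor MDA5, held none. Of 16 cytidine deaminases and cofactors, CDA alone held a site, 1 in the double-knockout list with 9 reads.
The 23 genes whose transcripts are recoded by editing are longer, with a median of 149 kb. They held 4 wild-type sites in 3 genes (13.0%) and 8 double-knockout sites in 6 (26.1%). These shares lie above the 5.91% and 14.1% of all protein-coding genes. The share among genes of like length was not set beside them, so nothing is read from the difference. CACNA1D, a calcium channel gene, held 2 in each list, of which 1 position was shared. HTR2C, which encodes a serotonin receptor, held 1 wild-type site with 11 reads and 2 double-knockout sites, of which the shared one had 23 reads and a fold of 8.78. GABRA3 held 1 wild-type site, and CYFIP2, GRIA3 and GRIK1 held 1 double-knockout site each. NEIL1 and GRIA2 held none. No gene of the 4 lists apart from ADARB2 held more than 2 sites in a list.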

How the data were processed

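DPC-Seq sites of HEK293T cells were analysed from 1 deposited list per genotype, assigned by the genotype word that its name shares with the labelled libraries; 3 genes, their 200 kb flanks and the other gene lists were chosen with earlier results of these data known. Reads were processed with deepTools, bedtools, MACS2 and Bowtie2 on hg38, per the submitters' processing notes. Not given in the sources used here are their versions, how its 2 libraries made up each list and which input was the control. The deposited score is 10 times the −log10 q, rounded down. The deposited fold is the caller's ratio of reads to background at the summit. The deposited −log10 p and −log10 q come from the caller. The largest q in the authors' deposited table is 0.0450 in wild type and 0.0489 in double knockout.

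Summit reads were recovered by setting the fold to (reads + 1) / (background + 1) and solving for the whole number of reads whose Poisson tail gives the p. This matched every deposited −log10 p to within 0.001 (100% of sites in both lists), and the method was tested on simulated data. Summit reads had a median of 13 in wild type (6 to 405) and 17 in double knockout (6 to 452). Library totals are unknown. Double-knockout reads were divided by 1.69, the ratio of lowest backgrounds. Sites were placed by midpoint and shared at an overlap of at least 1 bp. Gene-free stretches over 2 Mb were left out of lengths, as were 831 rows of the gene table on other scaffolds. hg38 shares its chromosome coordinates with GRCh38.p14. Named beside the members were neighbours within 200 kb, the 5 genes nearest ADARB2 in length within 5 Mb of an end, and list genes with a site, of which 1 is counted but not reported here by name. Genes chosen after their values were seen are IFIH1 and GRIA2. Alternatives were stricter q, thinning, other flanks, site positions, overlaps, bins, ends and scaling. Python 3.11.15, numpy 2.4.6, pandas 2.3.3, scipy 1.17.1 and matplotlib 3.10.9 were used.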

Additional observations from a re-analysis of the deposited data

How the results depend on the processing

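Of 77 alternatives to 15 results, 65 left the value within counting error, or a count within 1.5 times. With double-knockout reads thinned to wild-type depth and both lists held to a −log10 p of 8.46, the 3 genes held 5.00 wild-type and 8.01 double-knockout sites, the gene bodies 2 and 3.25, and the shared shares were 22.7% and 14.2%; this threshold is the median of the wild-type list. The rate 1 to 2 Mb from an end fell to 2.30 and 2.87 per Mb, and to 3.86 in wild type at q below 0.001. The ratio at ADAR in wild type became 0, since its sole site is below that threshold, while in double knockout it rose to 8.67; at ADARB1 it was 2.37 and 1.56, and at ADARB2 0.909 and 1.25, in wild type and double knockout. Flanks of 500 kb gave 27.0 and 43.0 sites. A background from the same chromosome arm could not be given for ADARB1 and ADARB2, because under 0.5 Mb of the arm was left at that distance. No paired analysis was possible because each genotype has 1 list and no values per library. Depth limits most statements: with 8 to 39 reads a site, no shared site separated the genotypes. Most ratios to the rate at the same distance had intervals that include 1. The exceptions were the ADARB2 body in both lists and, in double knockout, the ADAR flanks alone or with the body. With chromosomes taken to begin at coordinate 1, the rate 1 to 2 Mb from an end was higher, 5.19 and 8.96 per Mb. No interval for the ADARB2 body is given at that setting. The genes were chosen on these counts and the intervals cover counting error only, so an interval without 1 is no test. Against the same chromosome arm the double-knockout ratio at ADAR was 2.06.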
